A study of Homo sapiens with 6 samples.

Results

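The general transcription factors are the proteins that place RNA polymerase II on a promoter, and TFIID is the factor among them that holds the TATA-binding protein TBP and its associated factors, the TAFs. Of 18404 genes with a probe set of their own on the array, 31 were taken here by gene symbol: 2 genes of TFIIA, 1 of TFIIB, TBP with its relative TBPL1, 18 TAF genes, 2 genes of TFIIE, 2 of TFIIF and 4 of TFIIH. The family was chosen by 1 measured value, the higher GTF2B signal after SALL4 knockdown, while the other symbols entered whatever their values were. GTF2B and all other members are therefore described in this comparison with values and standard errors and without p-values. TAF9, GTF2H2, GTF2H2B, GTF2H2C and GTF2A1L fit the same symbol pattern, but their probe sets are annotated to several genes at once, so these 5 symbols have no value of their own.

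The arrays came from SNU-398, an established human hepatocellular carcinoma line kept in RPMI medium with fetal bovine serum. Cultures were treated with short hairpin RNA (shRNA) directed at SALL4, which encodes a DNA-binding zinc finger protein active in embryonic stem cells and fetal liver, or with a scrambled shRNA. Each group had 3 biological replicates, on 6 arrays in all. The comparison asks which transcripts differ when SALL4 is knocked down. The labels give neither the hairpin sequence nor the time after treatment and do not say whether cells were pooled or cloned, so loss of SALL4 and other effects of the hairpin cannot be told apart. Values are the deposited intensities, on a linear scale with a floor at 10, and differences are SALL4 shRNA minus scrambled shRNA on the log2 scale.

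As background, transcription by RNA polymerase II starts when TFIID binds the core promoter through TBP and the TAFs. TFIIA steadies TBP on the DNA, and TFIIB bridges TBP, the DNA beside the TATA box and the polymerase. TFIIF arrives with the polymerase, TFIIE then recruits TFIIH, and TFIIH opens the DNA and phosphorylates the tail of the polymerase. Some TAFs also belong to SAGA, a histone acetyltransferase complex that helps to load TBP.

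Promoters of 4 members are shown because they belong to the gene that chose the family (GTF2B), to the TBP relative with a higher signal (TBPL1) and to the members with the lowest differences (GTF2E1 and TAF9B). Each is the 250 bases before the transcript start, read on the strand of the gene, from RefSeq on GRCh38.p14. GTF2B lies on the minus strand at chr1:88891568-88891817, TBPL1 on the plus strand at chr6:133952974-133953223, GTF2E1 on the plus strand at chr3:120742494-120742743 and TAF9B on the minus strand at chrX:78139651-78139900. Capitals mark matches, on either strand, to the TATA box TATAAA, the CCAAT box CCAAT, the GC box GGGCGG or the ETS core CCGGAA.
GTF2B: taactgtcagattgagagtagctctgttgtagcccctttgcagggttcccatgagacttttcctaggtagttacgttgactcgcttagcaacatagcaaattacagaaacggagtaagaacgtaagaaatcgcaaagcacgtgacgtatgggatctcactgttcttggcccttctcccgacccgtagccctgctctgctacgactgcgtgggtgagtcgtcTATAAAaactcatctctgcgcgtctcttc
TBPL1: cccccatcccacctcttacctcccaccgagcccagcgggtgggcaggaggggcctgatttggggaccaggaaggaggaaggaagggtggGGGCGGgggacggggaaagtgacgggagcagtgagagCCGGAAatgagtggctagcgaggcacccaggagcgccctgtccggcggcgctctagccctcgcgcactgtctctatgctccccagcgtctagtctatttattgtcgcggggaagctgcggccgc
GTF2E1: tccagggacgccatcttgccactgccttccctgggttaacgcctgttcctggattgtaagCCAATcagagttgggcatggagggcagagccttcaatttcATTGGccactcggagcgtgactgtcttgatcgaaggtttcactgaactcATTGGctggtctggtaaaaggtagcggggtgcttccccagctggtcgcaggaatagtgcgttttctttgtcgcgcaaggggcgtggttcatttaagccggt
TAF9B: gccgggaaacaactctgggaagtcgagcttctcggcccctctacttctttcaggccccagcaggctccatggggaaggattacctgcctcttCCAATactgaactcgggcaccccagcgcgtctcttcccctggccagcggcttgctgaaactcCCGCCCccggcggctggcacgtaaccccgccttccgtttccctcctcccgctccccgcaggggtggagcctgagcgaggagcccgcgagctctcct

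The GTF2B window held 1 TATA box, from 29 to 24 bases before the start, and none of the other motifs. GTF2E1 held 3 CCAAT boxes and neither of the GC-rich motifs, TAF9B 1 CCAAT box and 1 GC box, and TBPL1 1 GC box and 1 ETS core. RefSeq gave 33 such windows for 26 of the 31 members, some of them overlapping windows of 1 gene, and GTF2E2, TAF1L, TAF2, TAF8 and TAF15 had no entry. GTF2B was the 1 window of the 33 with TATAAA, a motif found in 10.7% of all 35116 windows in the table. CCAAT was found in 10 of the 33 windows and 11240 of all windows, and GGGCGG in 17 of the 33 and 42.6% of all. The ETS core, here only the letters CCGGAA, was found in 15 of the 33 windows, which belong to 14 of the 26 members, against 14.5% of all windows. All windows include those of noncoding genes, and a match describes letters and not binding.

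SALL4, the targeted gene, had intensities of 121, 119 and 117 with the SALL4 shRNA, against 283, 264 and 335 with the scrambled shRNA. The groups did not overlap, and SALL4 fell to 40.6% of the scrambled level (log2 difference -1.30 ± 0.18, SE). The limma adjusted p over all 13325 genes fitted was 0.0108. An exact permutation test (two-sided) gave p = 0.1, which is the lower limit with 3 arrays a group. Array medians lay between 47.85 and 51.69. On the second principal component (20.1% of the variance) SALL4 shRNA replicate 2 (-23.6) and scrambled replicate 3 (-18.0) stood apart from the other arrays (1.12 to 16.7), so values without these 2 arrays are also given. Without them the limma adjusted p of SALL4 was 0.0691 and 20 genes were called instead of 220, and with no filter on dim genes the adjusted p was 0.0946.

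Defining hepatocyte genes were at or near the floor, with ALB at 12.1 and 11.2 and AFP at 13.5 and 15.0 (means with SALL4 and scrambled shRNA), and 7 of the 10 measured liver markers averaged under 32. The fetal liver proteoglycan gene GPC3 averaged 144 and 155. Of the 4 epithelial markers EPCAM averaged 894 and 963 and KRT18 102 and 99.8. KRT8 (56.35 and 36.7) and CDH1 (28.4 and 27.1) were dimmer. Of 6 measured blood markers PTPRC and LYZ were at the floor on all 6 arrays, and CD3E, CD14 and HBB averaged under 32 in both groups. CD68, a macrophage marker, averaged 148 and 109, and the 6 summed to between 189.7 and 284 with the SALL4 shRNA and between 184 and 208 with the scrambled shRNA. The 6 fibroblast and stellate markers summed to between 1006 and 1368 with the SALL4 shRNA and between 1286 and 1444 with the scrambled shRNA. The members of that list went both ways: DCN (83.4 and 195), COL3A1 (235 and 348) and LUM (649 and 670.5) averaged lower with the SALL4 shRNA, while COL1A1 (96.5 and 74.6), COL1A2 (77.1 and 54.3) and PDGFRB (53.8 and 41.8) averaged higher. Their part in the values below was not tested, and in bulk RNA fewer cells of a type and less RNA per cell cannot be told apart.

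TFIIB is 1 polypeptide, encoded by GTF2B, and it had the highest difference of the family. GTF2B intensities were 567, 617 and 496.5 with the SALL4 shRNA, against 238, 242 and 178 with the scrambled shRNA. The lowest SALL4 shRNA array was 2.05 times the highest scrambled array, so the groups were well apart. The means were 560.0 ± 60.5 and 219 ± 36.0 (SD, n = 3 each), a 2.57-fold difference of the log2 means (1.36 ± 0.20, SE), the 11th highest of the 13325 genes. Leaving out 1 array at a time gave differences between 1.22 and 1.45, the lowest without scrambled replicate 3, and leaving out both arrays that stood apart gave 1.15. GTF2B was measured by 1 probe set, as was each other member, so no second probe set bears on it.

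**Figure D1:**
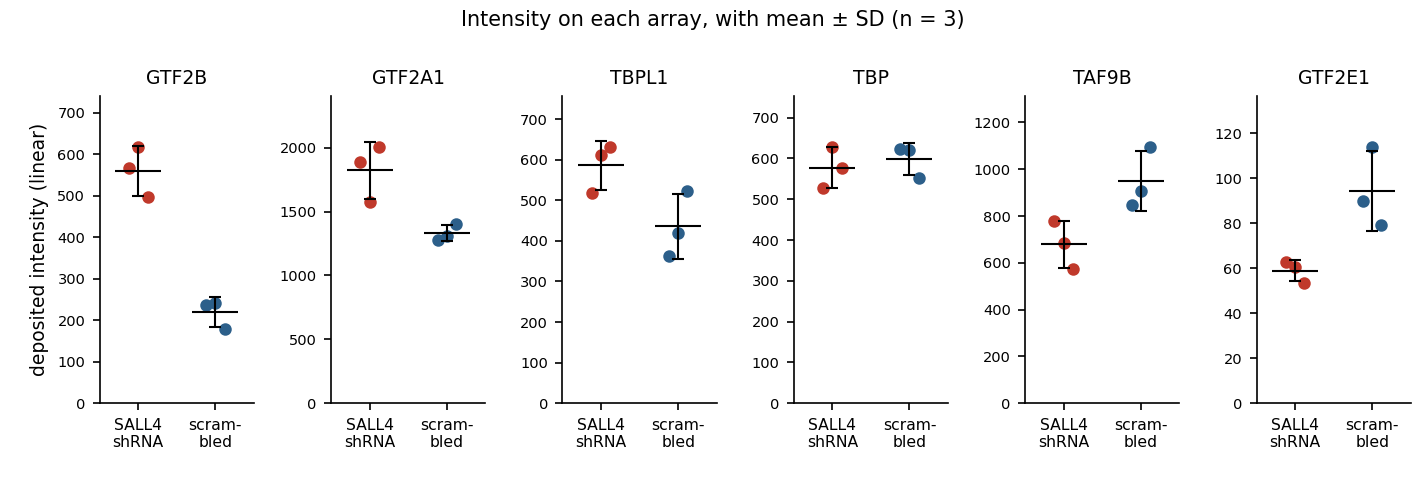
Deposited intensity (linear, axes from 0) of GTF2B, GTF2A1, TBPL1, TBP, TAF9B and GTF2E1 on the 3 SALL4 shRNA arrays (red, left) and the 3 scrambled arrays (blue, right), with mean and SD as black bars. GTF2B separates the groups by the widest ratio of these genes, GTF2A1, TAF9B and GTF2E1 separate them narrowly, and TBPL1 and TBP overlap.

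Of the 31 members 30 had a mean log2 intensity of at least 5 and entered the fit of 13325 genes, and TAF7L did not. In that fit 1 of the 30 had an adjusted p under 0.05, GTF2B, against 1.65% of all genes fitted (0.600% higher and 1.05% lower with the SALL4 shRNA). Since GTF2B chose the family, nothing is read from this count. Without the 2 arrays that stood apart, and in a fit without a filter on dim genes, it was 0 of the members. The groups did not overlap in 9 of the 30 members, 4 higher and 5 lower with the SALL4 shRNA. Leaving out GTF2B, which chose the family, they did not overlap in 8 of 29 (27.6%), 3 higher and 5 lower. Among all genes fitted this was so for 22.2%, with 11.5% higher and 10.8% lower. The median difference of the 30 was -0.027, beside 0.018 over all genes fitted, and 14 were positive and 16 negative. It was 0.074 without SALL4 shRNA replicate 2 and 0.066 without both arrays that stood apart. Only GTF2B and GTF2E1 differed by more than 0.5 in either direction, where 14.3% of all genes fitted did. The spread between replicate arrays had a median SD of 0.21 on the log2 scale over the 30 members, from 0.064 for TAF7 to 0.47 for TAF1L, beside 0.25 over all genes fitted.

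**Figure D2:**
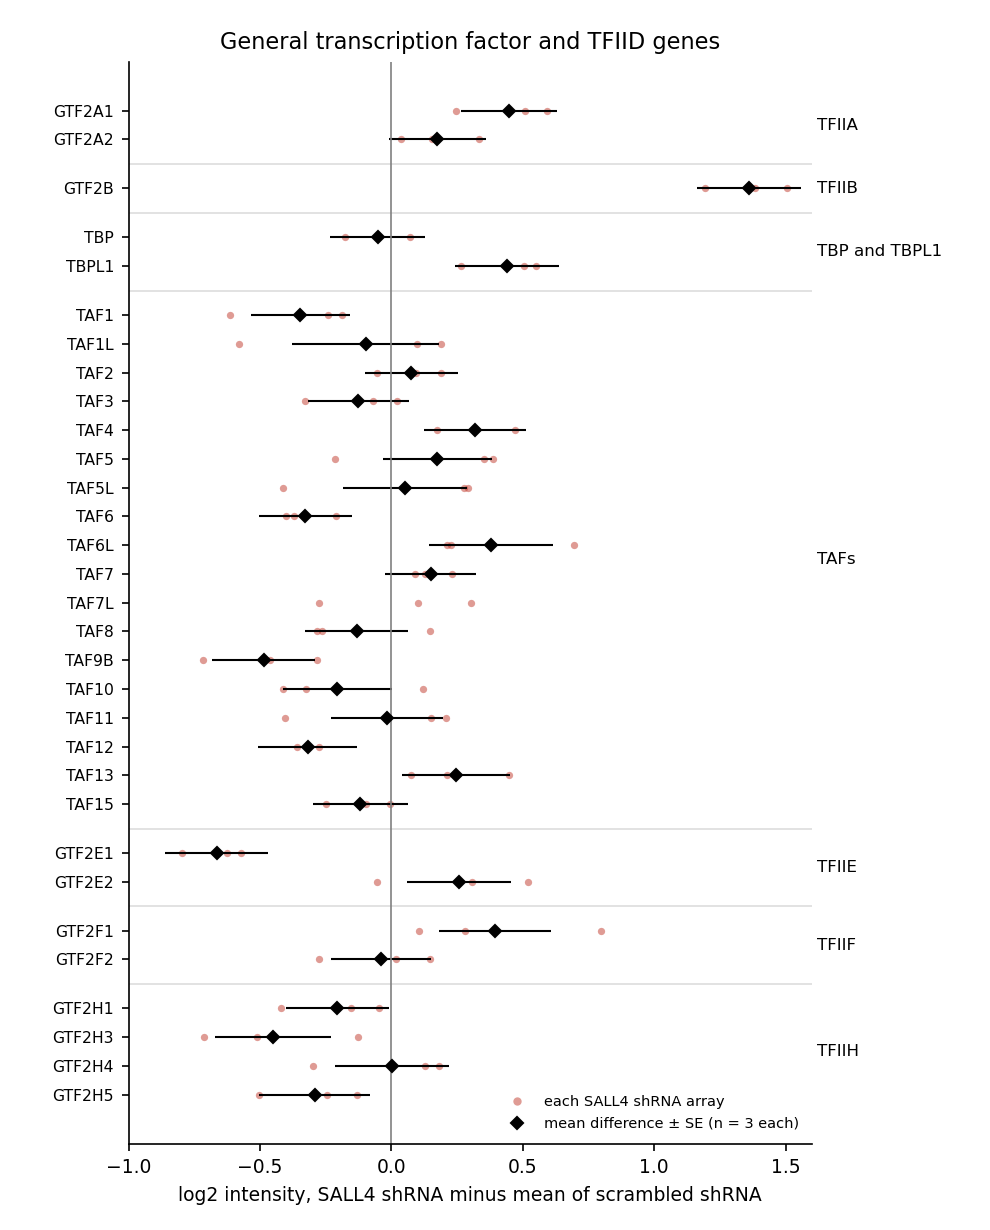
Log2 difference of each of the 31 genes between SALL4 shRNA arrays and the mean of the scrambled arrays, by factor; red points are the 3 SALL4 shRNA arrays and black diamonds the mean difference with its SE. GTF2B stands at 1.36, the other 29 fitted genes lie between -0.67 and 0.45, and TAF7L, near the floor, has points only.

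TBP, the subunit that binds the TATA box, had nearly equal levels in both groups. Its intensities were 528, 627 and 576 with the SALL4 shRNA and 623, 619.8 and 552 with the scrambled shRNA, and the groups overlapped (-0.053 ± 0.18, SE). TBPL1, a TBP relative that does not bind the TATA box and is needed for sperm formation in mice, was at 517, 611 and 631 with the SALL4 shRNA, against 363, 420.0 and 523 with the scrambled shRNA. Its difference was 0.44 ± 0.20 (SE), but scrambled replicate 3 exceeded SALL4 shRNA replicate 1, so the groups overlapped.

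Both TFIIA genes had positive differences. GTF2A1, which encodes the precursor that is cut into the large TFIIA subunits, was at 1891, 1574 and 2004 with the SALL4 shRNA and at 1279, 1311 and 1401 with the scrambled shRNA. The groups did not overlap, and the difference was 0.45 ± 0.18 (SE), the second highest of the family. Without the 2 arrays that stood apart it was 0.59. GTF2A2, the small subunit, was at 984, 868 and 800.3 against 707, 781 and 859 with the scrambled shRNA, an overlapping difference of 0.18 ± 0.18 (SE).

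The TAFs had mostly small differences: 7 of the 17 fitted were positive and 10 negative, with a median of -0.098 and a range from -0.49 to 0.38. In 5 of the 17 the groups did not overlap, 1 higher and 4 lower with the SALL4 shRNA, beside 22.2% of all genes fitted (11.5% higher and 10.8% lower). TAF1, the largest TFIID subunit and a carrier of bromodomains, was at 205, 213 and 158 with the SALL4 shRNA and at 236, 249 and 242 with the scrambled shRNA (-0.35 ± 0.19, SE). All 3 SALL4 shRNA arrays lay below the scrambled arrays, replicate 3 by the widest margin. TAF6, a histone-fold subunit, was at 188, 185 and 211, against 255, 244 and 233 with the scrambled shRNA (-0.33 ± 0.18, SE), also without overlap. TAF7, which binds TAF1, was the 1 TAF without overlap on the higher side, at 223, 239.7 and 217 against 209.5, 207 and 196 with the scrambled shRNA. That difference was small (0.15 ± 0.17, SE) and the spread of TAF7 was the lowest of the family.

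In TAF2, TAF3, TAF4, TAF5, TAF8, TAF11, TAF13 and TAF15 the groups overlapped. The scaffold subunit TAF4 was at 354, 288 and 317 with the SALL4 shRNA and at 238, 306 and 229 with the scrambled shRNA (0.32 ± 0.19, SE). TAF5, the WD40 subunit, was at 433, 423 and 285, against 348, 311 and 336 with the scrambled shRNA (0.17 ± 0.21, SE). Both were higher on 2 SALL4 shRNA arrays than on all scrambled arrays, and the remaining array lay within or below the scrambled range. TAF11 and TAF13, which pair through histone folds, had differences of -0.016 ± 0.21 and 0.24 ± 0.21 (SE). TAF2, which reads the initiator element, was at 0.076 ± 0.18 (SE), and TAF3, which binds methylated histone tails, was at -0.13 ± 0.19 (SE). TAF8, needed for TFIID assembly, was at -0.13 ± 0.19 (SE), and it was -0.34 without the 2 arrays that stood apart. TAF15, an RNA-binding protein, was at -0.12 ± 0.18 (SE).

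The 5 measured TAFs of SAGA, in it alone or shared with TFIID, did not move as a block, with 2 positive and 3 negative differences. TAF9B, a close relative of TAF9, had the lowest difference of all TAFs, with 777, 686 and 574 in SALL4 shRNA cultures against 847, 909 and 1094 in scrambled cultures (-0.49 ± 0.20, SE). The groups did not overlap. TAF12, the partner of TAF4, was at 182, 187 and 193, against 223, 279 and 204 with the scrambled shRNA (-0.32 ± 0.19, SE), also without overlap. TAF10 overlapped, with a difference of -0.21 ± 0.21 (SE) that was -0.48 without the 2 arrays that stood apart. TAF6L and TAF5L, the SAGA counterparts of TAF6 and TAF5, were the 2 with positive differences, where TAF6 was negative and TAF5 positive. TAF6L was at 141, 102 and 101 against 81.2, 118 and 68.6 with the scrambled shRNA (0.38 ± 0.24, SE), and TAF5L at 245, 152 and 248 against 206, 244 and 165 (0.052 ± 0.24, SE). Both overlapped. Leaving out 1 array at a time kept TAF6L between 0.21 and 0.60, while TAF5L lay between -0.094 and 0.28, so its sign rests on single arrays.

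Of the paralogs known mainly from germ cells, TAF1L was at 39.1, 22.9 and 36.65 with the SALL4 shRNA and at 29.7, 26.4 and 51.5 with the scrambled shRNA. Its difference of -0.098 ± 0.28 (SE) turned to 0.44 without the 2 arrays that stood apart. TAF7L was at 13.0, 10.05 and 15.0 against 10.9, 16.5 and 10.0 with the scrambled shRNA, at or near the floor on all arrays, so no difference is given for it. TAF1L resembles TAF1 closely in sequence, and shared probe signal between such copies was not tested.

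**Figure D3:**
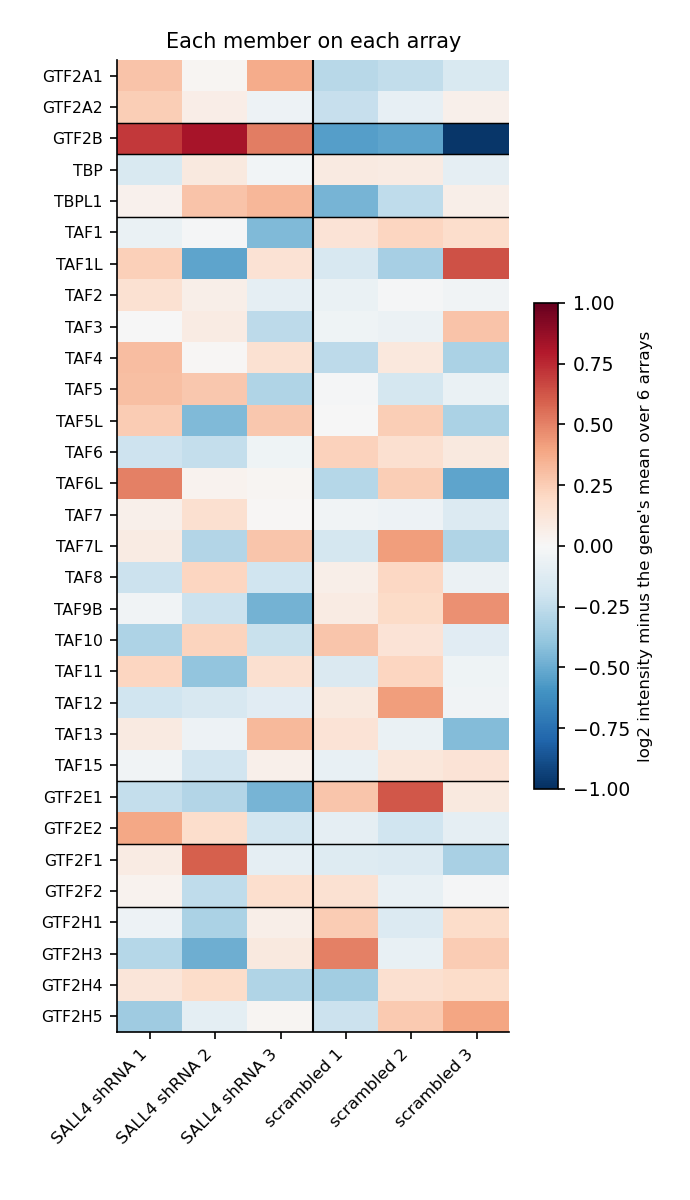
Log2 intensity of each gene on each array minus the mean of that gene over the 6 arrays, with SALL4 shRNA arrays left of the line and scrambled arrays right of it, and factors divided by horizontal lines. GTF2B is above its mean on all 3 SALL4 shRNA arrays and below it on all 3 scrambled arrays, while TAF1L and TAF5L are low on SALL4 shRNA replicate 2 alone among the arrays of that group.

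The subunits of TFIIE differed in sign. GTF2E1, the large subunit, had the lowest difference of the family, with intensities of 62.7, 60.4 and 53.6 in SALL4 shRNA cultures and 89.7, 114 and 79.3 in scrambled cultures. The groups did not overlap, and the means were 58.9 ± 4.76 and 94.3 ± 17.6 (SD, n = 3 each). The log2 difference was -0.67 ± 0.20 (SE), ranking 574th from the lowest among all genes fitted. GTF2E2, the small subunit, was at 422, 364 and 283 against 302, 279.6 and 302 with the scrambled shRNA. Its difference was 0.26 ± 0.20 (SE), with SALL4 shRNA replicate 3 inside the scrambled range.

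TFIIF also split. GTF2F1, the large subunit, was at 259, 371 and 229.6 with the SALL4 shRNA and at 224, 223 and 196 with the scrambled shRNA. The groups did not overlap (0.39 ± 0.21, SE), but replicate 3 lay just above the highest scrambled array and replicate 2 lay far above the others. The difference was 0.19 without SALL4 shRNA replicate 2 and 0.13 without the 2 arrays that stood apart. GTF2F2, the small subunit, was at 516, 421 and 564 against 558, 478 and 498 with the scrambled shRNA, an overlapping difference of -0.038 ± 0.19 (SE).

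Of the 4 TFIIH genes in the family, which are only part of its core, 3 had negative differences, and all groups overlapped. GTF2H3 was at 131, 114 and 171 with the SALL4 shRNA, against 226, 151 and 189.6 with the scrambled shRNA (-0.45 ± 0.22, SE). GTF2H5, the small subunit mutated in a form of trichothiodystrophy, was at 170.0, 203 and 220.3, against 188, 261 and 286 with the scrambled shRNA (-0.29 ± 0.21, SE). GTF2H1 was at 374, 310.2 and 402, against 462, 352 and 440.2 (-0.21 ± 0.20, SE). In each of the 3 genes at least 1 SALL4 shRNA array lay inside the scrambled range. GTF2H4 was equal in the groups, at 67.0 ± 11.6 and 67.0 ± 12.9 (SD, n = 3 each).

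Without the 2 arrays that stood apart, several small differences changed by more than 1.5 times. TBP was then at -0.17, TAF7 at 0.079, TAF5 at 0.095 and TAF5L at 0.14. TAF15 was at -0.014, GTF2H1 at -0.057 and GTF2H5 at -0.19. TAF11 and GTF2F2 turned positive, to 0.15 and 0.064, and GTF2H4 remained near 0.

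Other genes of the transcription machinery were set beside the family, most of them of RNA polymerase II and some of RNA polymerases I and III. Of 117 such genes in 7 lists 110 were in the fit, and limma called 0 of them in either direction, beside 1.65% of all genes fitted. At an unadjusted p under 0.05 there were 12 of the 110, beside 2233 of all 13325 genes. Limma with trend and robust settings also called 0. Their median difference was 0.038, with 59 positive and 51 negative, and their groups did not overlap in 21 (19.1%, beside 22.2% of all genes fitted). MED11, a head subunit of Mediator, had the lowest difference, with means of 57.9 ± 0.814 and 105 ± 29.0 (SD, n = 3 each; -0.83 ± 0.21, SE), and a limma adjusted p of 0.0714. A fit restricted to brighter genes called it. MED4, of the middle module of Mediator, was at -0.77 ± 0.38 (SE).

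Of the TFIIH genes outside the family, which the symbol pattern leaves out and which include core helicases, 4 of 5 were positive and 0 were called. CDK7, the kinase that phosphorylates the polymerase tail, was at -0.55 ± 0.21 (SE), while ERCC2, a helicase, was at 0.33 ± 0.30 (SE). Of 13 polymerase subunits 7 were positive, and the highest were POLR2E (0.76 ± 0.23, SE), a subunit common to the 3 nuclear polymerases, and the catalytic subunit POLR2A (0.43 ± 0.20, SE). Relatives of TBP and the TAFs outside the family had 3 positive and 8 negative differences among 11 fitted. TAF4B, a TAF4 paralog that the symbol pattern leaves out, was at 41.0 ± 6.37 and 61.3 ± 0.988 (SD, n = 3 each; -0.59 ± 0.19, SE), against the positive value of TAF4. BRF2, a TFIIB-related factor of RNA polymerase III, was at 0.59 ± 0.24 (SE).

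Of the TFIII and TFII-I genes, 3 of 9 were positive, with GTF3C1 at -0.44 ± 0.18 and GTF2IRD1 at -0.43 ± 0.20 (SE). Of 17 further genes in the SAGA list 8 were positive, with the acetyltransferase KAT2A at 0.55 ± 0.20 and TADA2A at -0.48 ± 0.22 (SE). TADA2A is a paralog of the SAGA adaptor TADA2B, and TADA2B was at 0.25 ± 0.22 (SE). Of 26 elongation genes 17 were positive, with PAF1 at 0.53 ± 0.18 and LEO1, its partner in the PAF1 complex, at 0.51 ± 0.23 (SE). Mediator had 17 positive and 12 negative differences among 29. The differences of all 110 lay between -0.83 and 0.76.

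**Figure D4:**
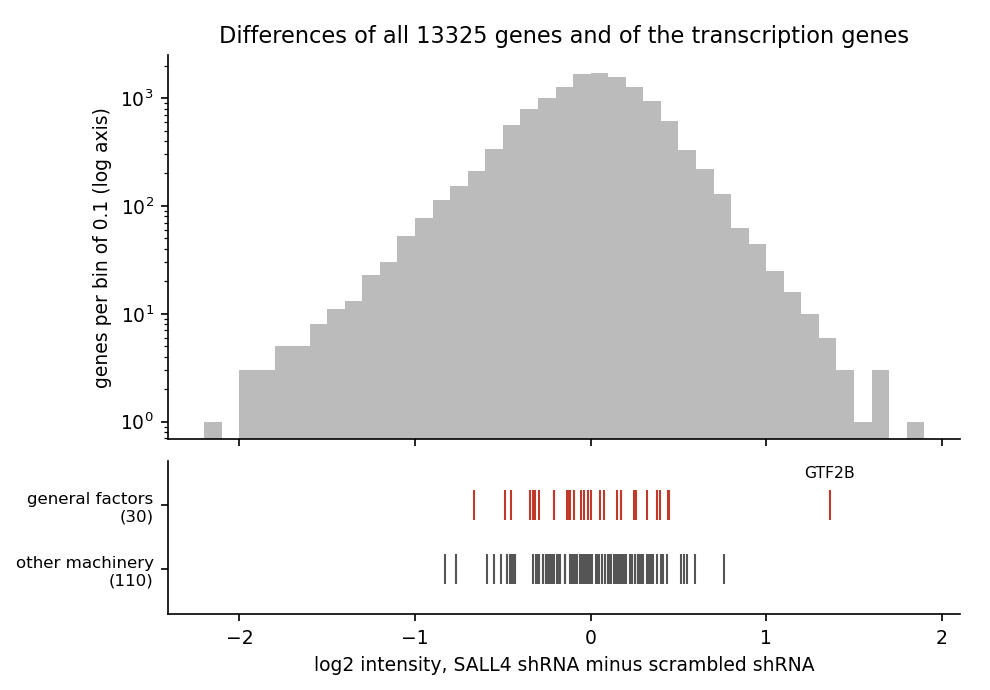
Upper panel, number of genes (log axis) in each bin of log2 difference, SALL4 shRNA minus scrambled shRNA, for all 13325 genes fitted; lower panel, 1 tick for each of the 30 general factor genes (red) and 110 other machinery genes (grey). The tick at 1.36 is GTF2B, the gene that chose the family, and the other ticks lie between -0.83 and 0.76.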

How the data were processed

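Total RNA of the 6 cultures was hybridized to Affymetrix arrays. The deposited intensity values are linear with a floor at 10. Per the submitters' processing notes RMA was used; neither a version nor any later step is stated. Log2 of each intensity was taken. Of 32319 probe sets 19158 have 1 gene symbol in the platform annotation, 1388 have several and 11773 are not listed. Symbols were updated by Entrez identifier, and the brightest probe set stood for each of 18404 genes.

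Genes whose log2 intensity averaged 5 or more over the 6 arrays (13325) entered 1 linear model in limma (version 3.58.1, under R 4.3.3; lmFit, then eBayes, two-sided), with Benjamini-Hochberg adjustment over all of them and a threshold of 0.05. Means carry the SD over arrays and differences the SE of this fit. On simulated arrays with 200 changed genes it recovered 51% of log2 shifts of 1 and 89% of log2 shifts of 2. Of its 145 calls 5 were false. The changed genes had a mean log2 intensity of at least 6, and no shift under 1 was simulated. The simulated noise was independent between arrays, unlike arrays that stand apart together, so recovery in the real fit may differ. The number of arrays limits the precision.

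The members and lists were chosen with earlier results of these data known, as was the filter. Named are every member, called genes of the machinery lists or else 2 with the largest difference, TADA2B, SALL4, and defining markers. Alternatives changed the filter, probe set rule, spread model, normalization, pseudocount, pairing and arrays.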

Additional observations from a re-analysis of the deposited data

How the results depend on the processing

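Over 16 alternative settings the GTF2B difference stayed positive, from 1.15 without the 2 arrays that stood apart (an alternative chosen after seeing the data) to 1.45. GTF2B chose the family, so this is no test of it. Changes of filter, probe set rule, spread model or pairing could not alter its difference, as it has 1 probe set and the groups are equal in size. With no filter and without those 2 arrays 0 members were called, where otherwise 1 was, and under the same 2 settings SALL4 no longer passed the threshold of 0.05, with differences of -1.30 (limma adjusted p 0.0946) and -1.20 (0.0691); over all settings its adjusted p lay between 0.00275 and 0.0946. The number of genes called, 220, was 0 with no filter (2864 at an unadjusted p under 0.05 in limma), 341 with a minimum mean log2 intensity of 6, 486 with trend and robust settings, 407 with 16 added before the log, 20 without the 2 arrays, and 37 to 99 without 1 array, whichever of the 6 was left out. Fewer arrays leave fewer degrees of freedom, and for the other changes the cause was not tested. With the replicate number as a block (replicate block) 37 genes were called. Same-numbered arrays correlated in their deviations between -0.085 and 0.0004, and arrays of other numbers between -0.062 and 0.0925. These values show no sign of pairing by number, but with 3 arrays a group they cannot exclude it. The median of the members ranged from -0.060 to 0.074 without 1 array and was 0.066 without the 2 arrays. A minimum of 6 called 1 machinery gene, MED11. Of 462 differences of the 29 other members under these settings, 16, of 6 members near 0, had the other sign. Changes of filter, probe set rule, spread model or pairing could not alter these differences either. Leaving out 1 array could not move a difference by 1 SD. The 456 that moved by less than 1 SD are therefore no measure of stability. The 6 that moved by more all came from leaving out the 2 arrays. Signals near the floor of 10 limit TAF7L and TAF1L.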

Other observations

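The probe sets annotated to several genes hold some symbols of the family, and their signal cannot be given to 1 gene. The probe set shared by AK6 and TAF9 had intensities of 352, 244 and 257 with the SALL4 shRNA, against 430.4, 394.5 and 332 with the scrambled shRNA, a difference of -0.45 on the log2 scale with 1 SALL4 shRNA array inside the scrambled range. The probe sets shared by the GTF2H2 copies had differences of -0.33 and 0.055, so they did not point 1 way. The probe set shared by STON1 and GTF2A1L was at 23.2, 22.4 and 22.8, against 34.0, 28.4 and 27.8 with the scrambled shRNA, without overlap but under an intensity of 32 on 5 of the 6 arrays.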
